A study of Mus musculus with 2 samples.

Results

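Plasma cell and IgA transport genes are 10 genes of the antibody system of the gut: Jchain, Mzb1, Txndc5, Pou2af1, Irf4, Prdm1, Sdc1, Cd79a, Cd79b and Pigr, out of 40879 gene symbols counted in the intestine of ERAP1 WT and ERAP1+/- mice. They were chosen by gene symbol with earlier results of the same data known, including their difference between the libraries, and Jchain and Mzb1 are also among the genes that the study picked from these libraries. Their differences are therefore given as a description, with no test. All 10 had reads in both libraries, 9 had at least 10 reads over both libraries together, and 6 passed a level of 4 on the log2(CPM + 1) scale in 1 or both libraries, where CPM is a read count relative to library size after TMM (trimmed mean of M values) scaling.

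The study examined whether ERAP1, an aminopeptidase of the endoplasmic reticulum that trims peptides for antigen presentation, affects colitis in mice. Of it, only the RNA of untreated intestine was analysed here, from C57BL/6 mice aged 8 weeks. In the ERAP1+/- mice, made through the ERAP1 tm1a (EUCOMM)Wtsi allele and a strain expressing Cre recombinase, exons 6 and 7 of 1 Erap1 copy were flanked by loxP sites and deleted, and the WT mice carried 2 intact copies. RNA of 3 mice per genotype was pooled into 1 library, and reads were taken from the 3' ends of polyadenylated transcripts. The pools have no replicate, so that no difference below has a replicate check and no p-value is given. Every 95% interval is the exact interval of a ratio of read counts and covers counting error only, and PCR reads without molecular identifiers are not independent molecules.

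Counted reads numbered 8114826 in WT and 8907515 in the library labelled ERAP1+/-. A count of 0 would allow 3 reads, or 0.386 and 0.322 CPM. Several features of the libraries went against their labels or set them apart. Erap1 was read 229 times in WT and 2 times in the library labelled ERAP1+/-, which was 137-fold lower (95% interval 37.5 to 1139), although 1 of the 2 copies is intact in a heterozygous mouse. Reads from the 3' end lie outside exons 6 and 7, so they do not check the deletion itself. Xist, made from the inactive X chromosome, had 1635 and 6451 reads, and Ddx3y of the Y chromosome 319 and 29, so the pools differed in sex markers. Markers of skin and muscle were found almost only in the WT library: 12 skin keratinocyte genes summed to 19893 reads there against 290 (82.1-fold lower), with Ivl, Trp63, Dsg1a and Dsc1 at 0 in the library labelled ERAP1+/-, and 12 skeletal muscle genes summed to 8092 against 191 reads (50.7-fold lower), with Atp2a1 at 0. The 12 markers of intestinal epithelium, which define the labelled tissue, were abundant in both libraries, with 83526 and 81502 reads in all (1.23-fold lower after scaling in the library labelled ERAP1+/-). Cdh1, Krt19, Epcam and Krt8 were between 1.25- and 1.39-fold lower, and Krt20 was past 2-fold, at 2.31-fold lower (95% interval 2.20 to 2.42). Of the 12 markers, 9 had a ratio below 1 and 3 above, 8 with an interval wholly below 1 and 2 wholly above. Those 2, named for the other direction, were Cdx1 with 1080 and 1772 reads (1.37, 1.27 to 1.48) and Cdx2 with 86 and 172 (1.67, 1.28 to 2.19). The part of these features in the differences below was not tested.

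IgA is the main antibody of the gut. Plasma cells, the end stage of the B cell lineage, lie beneath the epithelium and release IgA as a dimer joined by the J chain, and the polymeric immunoglobulin receptor takes the dimer through the epithelial cell into the lumen. When a B cell becomes a plasma cell it gives up much of its B cell programme under transcription factors such as IRF4, BLIMP-1 (from Prdm1) and XBP1, and enlarges its endoplasmic reticulum for antibody secretion. Of the 10 genes, Jchain, Mzb1 and Txndc5 act in the assembly of antibody, Pou2af1, Irf4 and Prdm1 are regulators of transcription, Sdc1 encodes a surface protein, Cd79a and Cd79b encode the signalling chains of the B cell receptor, and Pigr encodes the receptor that transports IgA.

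Jchain and Pigr stand at the 2 ends of this route, the joining of IgA dimers and their transport, and Pou2af1 encodes a coactivator that works with octamer-binding factors. Their promoters are shown because the 3 genes differ in cell of origin and in the size of their difference between the libraries. The windows come from RefSeq on GRCm38.p6 and run from 250 bases before the annotated start to 50 bases after it, 5' to 3' on the strand of the gene. Of the 10 genes, 8 had a window, with 10 windows in all, and those without one were Mzb1 and Cd79b. Capitals mark, on either strand, the octamer without its last base (ATTTGCA), the core of the unfolded protein response element (TGACGTG), the E-box (CACGTG) and the interferon response core (TTTCNNTTT).
Jchain, chr5:88527848-88528147, minus strand: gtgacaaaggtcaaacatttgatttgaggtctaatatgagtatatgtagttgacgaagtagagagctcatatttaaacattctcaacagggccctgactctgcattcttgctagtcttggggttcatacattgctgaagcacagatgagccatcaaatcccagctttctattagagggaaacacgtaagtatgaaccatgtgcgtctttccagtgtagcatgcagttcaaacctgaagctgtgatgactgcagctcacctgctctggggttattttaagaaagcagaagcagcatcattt
Pou2af1, chr9:51213440-51213739, plus strand: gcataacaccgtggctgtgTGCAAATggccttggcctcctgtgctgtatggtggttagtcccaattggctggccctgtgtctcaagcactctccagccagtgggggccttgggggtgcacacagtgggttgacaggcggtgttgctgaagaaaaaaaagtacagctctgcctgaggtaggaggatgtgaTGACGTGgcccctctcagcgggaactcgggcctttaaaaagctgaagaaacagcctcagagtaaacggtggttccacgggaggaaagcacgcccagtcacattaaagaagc
Pigr, chr1:130826434-130826733, plus strand: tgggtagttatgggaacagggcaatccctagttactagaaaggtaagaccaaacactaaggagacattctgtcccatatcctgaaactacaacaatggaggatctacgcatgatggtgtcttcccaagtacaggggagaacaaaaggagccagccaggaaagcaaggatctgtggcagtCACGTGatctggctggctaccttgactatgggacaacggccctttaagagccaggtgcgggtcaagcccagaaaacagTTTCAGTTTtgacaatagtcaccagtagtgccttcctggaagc

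The Jchain window held none of these motifs. The Pou2af1 window held TGCAAAT, the octamer without its last base read on the other strand, from 231 bases before the start, and TGACGTG from 61 bases before it. In the Pigr window, CACGTG began 71 bases before the start and TTTCAGTTT at base 8 after it, and these last 2 motifs were chosen after the Pigr window had been read. Among the other windows, that of Prdm1 (chr10:44458699-44458998) lies at an annotated start inside the gene, and held ATTTGCA from 167 bases before that start. Of its 3 windows, Txndc5 held TGACGTG from 138 bases before the start and CACGTG at base 36 after it in 1, and TTTCCTTTT from 163 bases before the start in another. None of these matches overlapped another. Over all 32851 RefSeq windows of this length, ATTTGCA was found in 4.02%, TGACGTG in 2.01%, CACGTG in 7.15% and TTTCNNTTT in 10.6%. The full octamer ATTTGCAT, of which ATTTGCA is a part, was found in 1.74% of all windows and in 0 of the 10 windows of these genes. A match describes letters only, and binding was not measured.

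Jchain and Mzb1 were several times higher in the library labelled ERAP1+/-, and Txndc5 was higher by less than 2-fold with TMM scaling. Jchain (chr5:88519809-88527891, minus strand of GRCm38, 4 exons) encodes the joining chain of IgA dimers and IgM pentamers. It had 561 reads in WT and 2788 in the library labelled ERAP1+/-, or 72.2 and 299.7 CPM. Jchain was thus 4.15-fold higher (95% interval 3.79 to 4.55) in the library labelled ERAP1+/-, with a log2(CPM + 1) difference of 2.04, at place 15 from the top among the 8013 genes that passed the level. In pooled tissue, fewer cells of a type and less RNA per cell cannot be told apart, for this and every other gene below.

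Mzb1 encodes a chaperone of the endoplasmic reticulum that assists the assembly of IgM and IgA in B cells and plasma cells. It lies on chromosome 18 from 35647267 to 35649367, on the minus strand, with 4 exons. Mzb1 had 27 reads in WT and 201 in the library labelled ERAP1+/-, or 3.48 and 21.6 CPM. The library labelled ERAP1+/- was higher by 6.22-fold (95% interval 4.15 to 9.67), with a log2(CPM + 1) difference of 2.34 and place 9 of 8013. Mzb1 passed the level only through the library where it was high. In GENCODE M21, a longer gene model spelled SPATA24 lies on the same strand and covers 499 of the last 500 bases of Mzb1, where 3' reads fall, so that the counting could have split reads between the models. Spata24, a separate entry that lies outside Mzb1, had 29 and 31 reads, at a ratio of 0.893 (0.521 to 1.54).

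Txndc5 encodes a disulphide isomerase of the endoplasmic reticulum that is abundant in plasma cells and is made by many other cells. The gene (chr13:38500079-38528824, minus strand, 10 exons) had 250 reads in WT and 541 in the library labelled ERAP1+/-, or 32.2 and 58.2 CPM. This was 1.81-fold higher (95% interval 1.55 to 2.11), below the ratio of Jchain. Scaled to the reads of the intestinal epithelium list, the ratio of Txndc5 was 2.22 (95% interval 1.91 to 2.59), so that it passed 2-fold under that scaling. Bmp6 on the opposite strand covers 224 of the last 500 bases of Txndc5, and the strand setting of the counting is not stated. Bmp6 had 38 and 44 reads, at a ratio of 0.967 (95% interval 0.612 to 1.53).

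**Figure D1:**
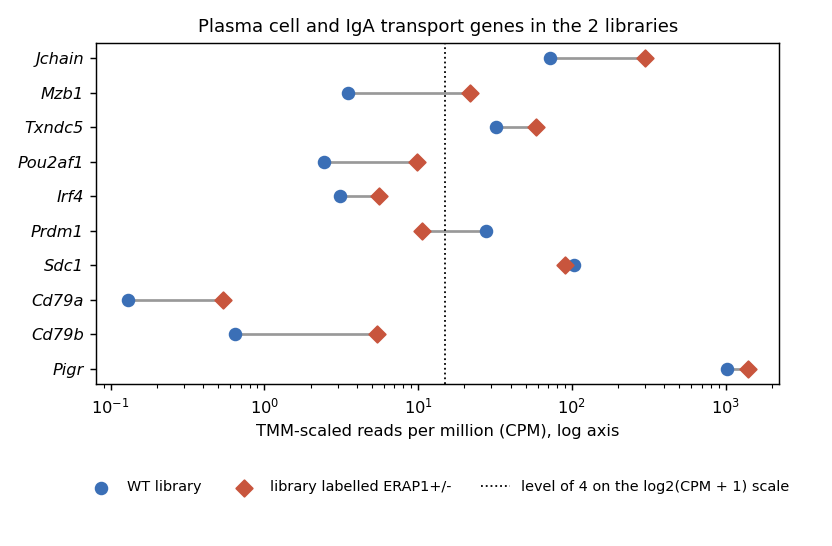
Level of each of the 10 genes in the WT library (circles) and the library labelled ERAP1+/- (diamonds), in TMM-scaled CPM on a log axis, with 1 library per genotype and no error bars. The dotted line is the level of 4 on the log2(CPM + 1) scale, and the diamond lies to the right of the circle for every gene except Prdm1 and Sdc1.

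The 3 regulators of transcription did not share a direction. Pou2af1 (chr9:51213708-51240080, plus strand, 5 exons) encodes OBF-1, a coactivator of octamer-dependent transcription in B cells, and its promoter is the one printed above with the octamer lacking its last base. Pou2af1 had 19 reads in WT and 92 in the library labelled ERAP1+/-, or 2.45 and 9.89 CPM. It was 4.05-fold higher (95% interval 2.45 to 7.02) in the library labelled ERAP1+/-, a ratio close to that of Jchain, but stayed below the level of 4 in both libraries.

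Irf4 (chr13:30749226-30766976, plus strand, 9 exons) encodes a factor needed for class switching and for plasma cell formation. It had 24 reads in WT and 52 in the library labelled ERAP1+/-, or 3.09 and 5.59 CPM. The ratio was 1.81 (95% interval 1.10 to 3.07), so that its lower bound lay near 1, and Irf4 too was below the level in both libraries.

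Prdm1 (chr10:44437177-44528501, minus strand, 7 exons) encodes BLIMP-1, the repressor that ends the B cell programme in plasma cells, and is also active in epithelial cells, including those of skin. Its reads went the other way from Jchain, with 216 in WT and 99 in the library labelled ERAP1+/-, or 27.8 and 10.6 CPM. Prdm1 was 2.61-fold lower in the library labelled ERAP1+/- (95% interval 2.05 to 3.35), with a log2(CPM + 1) difference of -1.31, at place 7808 of 8013. It passed the level only through the WT library, the one that also held the reads of the skin keratinocyte genes. The part of skin in this difference was not tested.

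Sdc1 (chr12:8771323-8793715, plus strand, 5 exons) encodes syndecan-1, or CD138, the proteoglycan by which plasma cells are commonly sorted, which epithelial cells of gut and skin make as well. It had 807 reads in WT and 839 in the library labelled ERAP1+/-, or 103.9 and 90.2 CPM. Sdc1 was 1.15-fold lower in the library labelled ERAP1+/- (95% interval 1.04 to 1.27), and 1.07-fold higher (95% interval 0.966 to 1.18) when scaled to the reads of the intestinal epithelium list, so its direction depended on the scaling.

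The signalling chains of the B cell receptor had few reads. Cd79b (chr11:106311341-106314762, minus strand, 6 exons), which encodes Ig-beta, had 5 reads in WT and 50 in the library labelled ERAP1+/-, or 0.644 and 5.38 CPM. This was the highest ratio of the 10 genes, 8.35 (95% interval 3.35 to 26.8), and its interval overlapped those of Mzb1, Jchain and Pou2af1. Cd79a (chr7:24897381-24902197, plus strand, 5 exons), which encodes the partner chain Ig-alpha, had 1 read in WT and 5 in the library labelled ERAP1+/-. Its ratio of 4.18 had a 95% interval of 0.467 to 197.5, so that no difference in Cd79a was detectable at this depth.

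Pigr (chr1:130826684-130852249, plus strand, 11 exons) encodes the polymeric immunoglobulin receptor of epithelial cells, whose outer part stays on IgA as the secretory component. It had 7995 reads in WT and 13056 in the library labelled ERAP1+/-, or 1029 and 1404 CPM. Pigr was higher by 1.36-fold (95% interval 1.33 to 1.40) in the library labelled ERAP1+/-, with a log2(CPM + 1) difference of 0.45, at place 794 of 8013. Relative to the intestinal epithelium list, Pigr had 9.57 reads per 100 in WT and 16.02 in the library labelled ERAP1+/-, a ratio of 1.67 (95% interval 1.63 to 1.72).

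Counted together, 2 of the 10 genes, Jchain and Mzb1, were more than 2-fold higher in the library labelled ERAP1+/-, and 1, Prdm1, was more than 2-fold lower. These 3 are among the 6 that passed the level, Mzb1 and Prdm1 through 1 library each. Over all 8013 genes past the level, 5.34% differed by more than 2-fold, 1.39% higher and 3.96% lower. By the other rule, the interval of the ratio lay wholly above 1 for 7 genes and wholly below 1 for Prdm1 and Sdc1, of the 9 genes with at least 10 reads, while over 16142 genes with at least 10 reads it lay wholly above 1 for 20.6% and wholly below 1 for 23.8%. These counts follow from how the genes were chosen and are not evidence of a direction. The median log2(CPM + 1) difference was 0.76 over the 10 genes and 0.84 over the 9 with at least 10 reads, against 0.002 over all 16142 genes with at least 10 reads. Because Pigr holds most of the reads, the summed reads of the 10 genes, 9905 and 17723, mainly follow Pigr. Just inside the 2-fold rule lay Prdm1 (-1.31), and outside it lay Txndc5 (0.84), which passed the level, and Cd79b (1.96) and Pou2af1 (1.66), which did not.

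**Figure D2:**
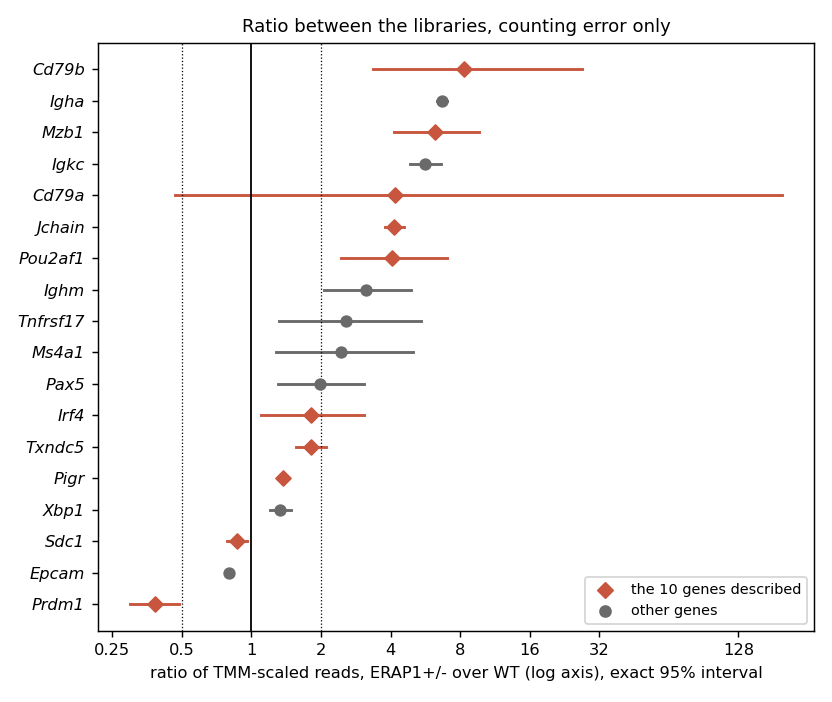
Ratio of TMM-scaled reads, library labelled ERAP1+/- over WT, on a log axis with exact 95% intervals for counting error, for the 10 genes (diamonds) and 8 other genes (circles). The solid line marks a ratio of 1 and the dotted lines 2-fold, and the ratios run from 0.383 for Prdm1 to 8.35 for Cd79b.

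Ratios within a library do not depend on how the libraries were scaled. Of the 10 genes, 7 were set against Jchain in this way. Per 100 Jchain reads, Mzb1 had 4.81 reads in WT and 7.21 in the library labelled ERAP1+/-, a ratio of 1.498 (95% interval 0.987 to 2.35). Pou2af1 had 3.39 and 3.30 reads per 100 of Jchain, a ratio of 0.974 (0.584 to 1.71), and Cd79b 0.891 and 1.79, a ratio of 2.01 (0.802 to 6.49). For Mzb1, Pou2af1 and Cd79b the interval included 1, which leaves room for sizeable differences at these read numbers.

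Irf4, Txndc5, Sdc1 and Prdm1 had fewer reads per Jchain read in the library labelled ERAP1+/-. Jchain itself was 4.15-fold higher there, so any gene that rose by less falls below 1 on this measure. Irf4 and Txndc5, each 1.81-fold higher with TMM scaling, were such genes. Irf4 went from 4.28 reads per 100 Jchain reads in the WT library to 1.87, a ratio of 0.436 (95% interval 0.262 to 0.746), and Txndc5 from 44.6 to 19.4, a ratio of 0.435 (0.364 to 0.521). Sdc1 had 143.9 and 30.1, and Prdm1 38.5 and 3.55, with ratios of 0.209 (0.183 to 0.239) and 0.0922 (0.0708 to 0.120). Prdm1 was also set against Irf4. Per Irf4 read, Prdm1 had 9.0 reads in WT and 1.90 in the library labelled ERAP1+/-, a ratio of 0.212 (0.118 to 0.374). Because Prdm1 is also active in epithelial cells, its reads cannot be assigned to plasma cells, and the part of skin was not tested. Tnfrsf17, which encodes the plasma cell survival receptor BCMA, had 2.14 and 1.33 per 100 Jchain reads, at a ratio of 0.620 (0.314 to 1.32), with an interval that included 1.

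**Figure D3:**
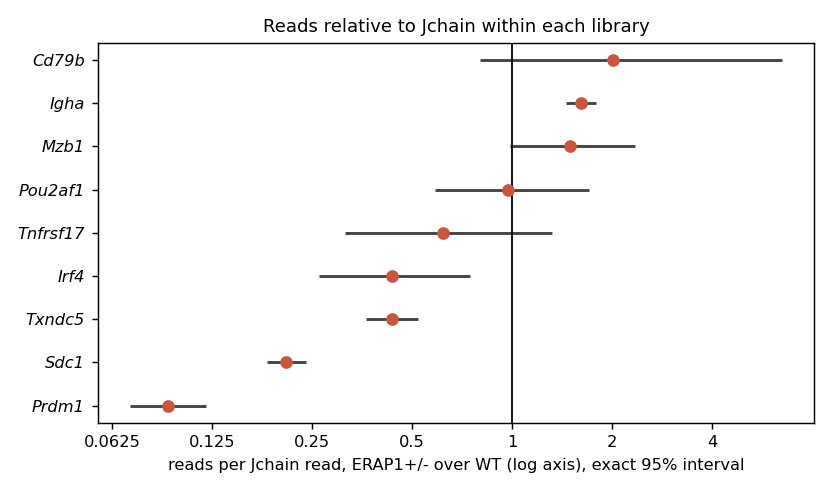
Reads per Jchain read, library labelled ERAP1+/- over WT, on a log axis with exact 95% intervals for counting error, for each gene compared with Jchain. Values of 1 mean that a gene kept its ratio to Jchain, and the points run from 2.01 for Cd79b to 0.0922 for Prdm1.

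The genes for immunoglobulin itself, which are not among the 10, showed the cargo that these genes join and carry. Igha, which encodes the IgA heavy chain constant region, had 1670 and 13367 reads, at a ratio of 6.69 (95% interval 6.35 to 7.04). Igkc, the kappa light chain, had 187 and 1266 reads, at a ratio of 5.66 (4.85 to 6.63), and Ighm, the IgM heavy chain, 29 and 109 reads, at a ratio of 3.14 (2.07 to 4.91). All 10 constant region genes with at least 10 reads were higher, with a median log2(CPM + 1) difference of 2.14 and a summed ratio of 6.33 (6.05 to 6.63). Because Igha holds most of their reads, the summed ratio mainly follows Igha. Igha and Igkc, like Jchain and Mzb1, are among the genes that the study picked from these libraries. Per 100 Jchain reads, Igha had 297.7 reads in WT and 479.4 in the library labelled ERAP1+/-, a ratio of 1.61 (1.45 to 1.79). Per Mzb1 read, Igha had 61.9 and 66.5 reads, at a ratio of 1.08 (0.689 to 1.62), so that no difference was detectable against Mzb1.

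The balance of IgA transcripts to transporter transcripts differed between the libraries. Per 100 Pigr reads, Igha had 20.9 reads in WT and 102.4 in the library labelled ERAP1+/-, a ratio of 4.90 (95% interval 4.62 to 5.20). Jchain had 7.02 and 21.4 per 100 Pigr reads, at a ratio of 3.04 (2.77 to 3.35).

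Other regulators and surface proteins of plasma cells, leaving out the 4 of the 10 genes on that list, differed in direction: 11 of 15 genes had a ratio above 1, 9 with an interval wholly above 1 and 4 with one wholly below, and their median log2(CPM + 1) difference was 0.68, against 0.002 over all genes with at least 10 reads. Their summed reads, 2380 and 2532, went the other way, at a ratio of 0.889 (95% interval 0.840 to 0.9402), with Cd38 and Ly6d of the lower side among the genes with most reads. The direction of this sum rested on Ly6d, with 649 and 114 reads, and without Ly6d the sum was not lower. Xbp1, which drives the secretory programme, had 579 and 925 reads, at a ratio of 1.33 (95% interval 1.20 to 1.48). Tent5c, a poly(A) polymerase that stabilises immunoglobulin mRNA, had 76 and 170 reads, at a ratio of 1.87 (1.42 to 2.48), and Ell2, an elongation factor that favours secretory heavy chain mRNA, 202 and 305 reads, at a ratio of 1.26 (1.05 to 1.51). Other genes of the list lay on both sides of 1 on few reads. Tnfrsf17 had 12 and 37 reads (2.58, 1.31 to 5.43), Tnfrsf13b, which encodes TACI, 12 and 55 (3.83, 2.03 to 7.86), and Slamf7 21 and 95 (3.78, 2.34 to 6.38), while Pim2, a survival kinase, had 37 and 15 (0.339, 0.173 to 0.632) and Itgb7, an integrin of gut homing, 31 and 19 (0.512, 0.273 to 0.935). These 5 were named after their values were seen.

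On the lower side, Ly6d, a marker of B cell precursors that keratinocytes also make, had 649 reads in WT and 114 in the library labelled ERAP1+/-, 6.82-fold lower, and was beside Prdm1 the only gene of the list past 2-fold. Cd38, a surface enzyme of plasma cells and other cells, had 698 and 646 reads, 1.29-fold lower (95% interval 1.16 to 1.44). Ly6d thus moved with Prdm1 and with the skin keratinocyte list, and the part of skin was not tested.

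The list for antibody assembly and secretion held, beside Jchain, Mzb1 and Txndc5, 23 genes of the endoplasmic reticulum and its export, many of them made in all secretory cells. Of these, 22 had a ratio above 1, 17 with an interval wholly above 1 and 1 with one wholly below, and the median log2(CPM + 1) difference was 0.41. Lman1, a cargo receptor for export from the endoplasmic reticulum, had 482 and 1170 reads and was the only one past 2-fold, at 2.03 (95% interval 1.82 to 2.26). The chaperones with the most reads differed less: Hspa5, or BiP, had 5007 and 6657 reads, at a ratio of 1.11 (1.07 to 1.15), and Hsp90b1 had 3540 and 6000, a ratio of 1.42 (1.36 to 1.48). Sec61b, a subunit of the translocon, had 826 and 1463 reads (1.48, 1.36 to 1.61), and Ssr4, of the associated TRAP complex, 1441 and 1995 (1.16, 1.08 to 1.24). The 1 gene on the lower side was Mcfd2, the partner of Lman1 in export, with 474 and 339 reads, 1.67-fold lower (1.45 to 1.93), a gene named after its value was seen.

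**Figure D4:**
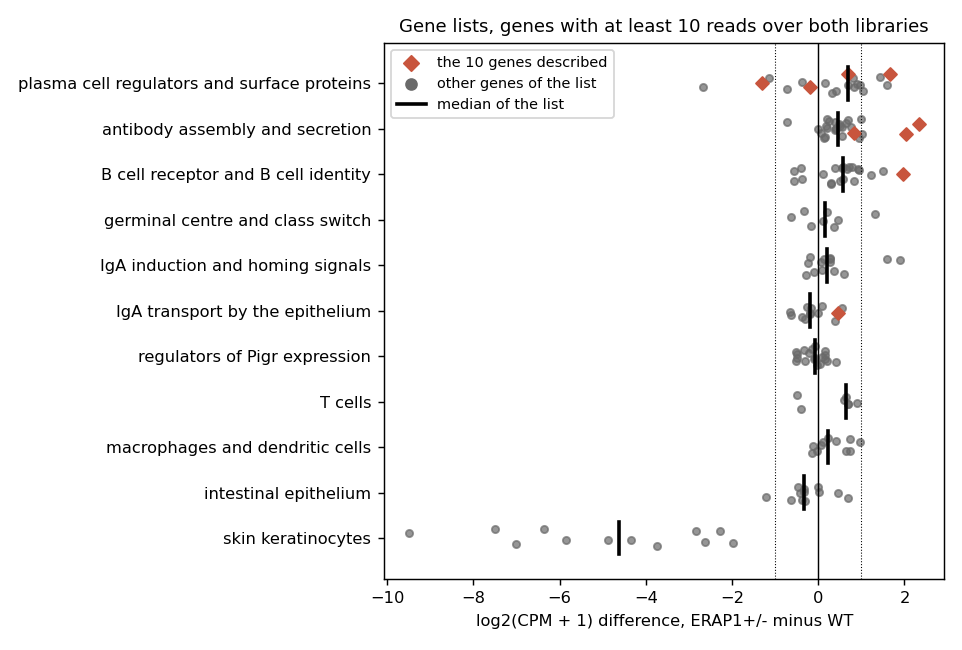
Differences in log2(CPM + 1), library labelled ERAP1+/- minus WT, for genes with at least 10 reads in 11 lists, with the 10 genes described as diamonds, other genes as circles and the median of each list as a bar. The bars of the plasma cell, antibody assembly and B cell lists lie at 0.68, 0.45 and 0.58, that of IgA transport at -0.18 and that of skin keratinocytes at -4.61.

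Of 20 B cell genes other than Cd79b with at least 10 reads, 16 had a ratio above 1, 7 with an interval wholly above 1 and 3 wholly below, and the median log2(CPM + 1) difference was 0.56. Their summed reads, 2212 and 2313, again went the other way, at a ratio of 0.873 (95% interval 0.824 to 0.926). Pax5, the factor that sets B cell identity, had 33 and 78 reads, at a ratio of 1.97 (95% interval 1.30 to 3.06). Ms4a1, which encodes CD20, had 13 and 38 (2.44, 1.27 to 4.995) and was named after its value was seen. The 3 genes with an interval wholly below 1 had far more reads than these: Ralgps2 with 860 and 787 reads (1.31-fold lower), Blnk with 611 and 496 (1.48-fold lower) and Ebf1 with 398 and 359 (1.33-fold lower). The direction of the summed reads rested on these 3 genes, which hold most of them. Without the 3, the sum was higher in the library labelled ERAP1+/-. Of the germinal centre and class switch list, 8 genes had at least 10 reads, 5 with a ratio above 1, 3 with an interval wholly above 1 and 1 wholly below, and their median log2(CPM + 1) difference was 0.15. Basp1 had 223 and 347 reads (1.30, 95% interval 1.10 to 1.55), and Ung, the uracil glycosylase of class switching, 166 and 275 (1.38, 1.14 to 1.69). S1pr2, a receptor that holds B cells in the germinal centre, had 80 and 58 (0.606, 0.424 to 0.860). Rgs13, a marker of germinal centre B cells, had 3 and 23 reads, at a ratio of 6.404 (1.94 to 33.3).

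Signals that bring IgA plasma cells to the gut, and the carriers that move Pigr through the epithelial cell, had list medians nearer to 0 than the plasma cell list. Of 14 induction and homing genes with at least 10 reads, 10 had a ratio above 1, 5 with an interval wholly above 1 and 1 wholly below, with a median log2(CPM + 1) difference of 0.20. With scaling to the epithelium list, 13 of the 14 had a ratio above 1 and 1 below. Ccl28, the epithelial chemokine for IgA plasma cells, had 187 and 273 reads, at a ratio of 1.22 (95% interval 1.01 to 1.48), and Cxcl12, the ligand of CXCR4, 410 and 743 reads, at a ratio of 1.51 (1.34 to 1.71). Itga4, an integrin chain of homing, had 96 and 150 reads (1.31, 1.00 to 1.70), and Aldh1a1, which makes retinoic acid, 440 and 461 (0.875, 0.766 to 0.9996), a ratio that was 1.07 with scaling to the epithelium list. Aldh1a2 of the same list went the other way on few reads, with 0 and 19 and a lower bound of 3.90. It was named after its value was seen. Without Pigr, 12 genes of IgA transport summed to 5013 and 6050 reads, at a ratio of 1.01 (0.971 to 1.05), and 9 of them had a ratio below 1, or 4 with scaling to the epithelium list. Rab25 of the apical recycling endosome was higher, with 1059 and 1671 reads (1.32, 1.22 to 1.43), while Rab11a, of the same compartment, was 1.20-fold lower (1.11 to 1.29) but 1.02-fold higher with the epithelium scaling, and Myo5b, the motor that binds both, 1.25-fold lower (1.12 to 1.40). Regulators of Pigr expression had 7 ratios above 1 and 12 below among 19 genes, with a median log2(CPM + 1) difference of -0.09, and 13 above and 6 below with the epithelium scaling. With TMM scaling, 8 had an interval wholly below 1 and 1 wholly above. The 1 above was Tlr3, named for the other direction, with 117 and 190 reads (1.36, 1.07 to 1.72). Irf1, whose binding motif belongs to the interferon response type marked in the Pigr window, had 1933 and 1652 reads, 1.40-fold lower (1.31 to 1.497), and Usf2, an E-box binding factor, 1576 and 1626 reads, 1.16-fold lower (1.08 to 1.24). Hnf4a, a factor of enterocyte genes, had 2541 and 2744 reads, 1.11-fold lower (1.05 to 1.17), and Relb of the NF-kappaB family 694 and 656, 1.27-fold lower (1.14 to 1.41). With the epithelium scaling, Usf2 and Hnf4a passed 1, at 1.06 and 1.11, while Irf1 and Relb stayed below it.

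Other immune cells and lymphoid epithelium were read beside these genes. Of 7 T cell genes with at least 10 reads, 5 had a ratio above 1, and their sum was 95 and 155 reads, at a ratio of 1.36 (95% interval 1.05 to 1.78). Ptprcap had 13 and 31 reads (1.99, 1.01 to 4.15) and Cd28 5 and 19 (3.17, 1.15 to 10.9). Named for the other direction, Cd4 had 21 and 15 (0.597, 0.286 to 1.21) and Il7r 29 and 24 (0.691, 0.385 to 1.23). Of 11 macrophage and dendritic cell genes, 8 had a ratio above 1, and Csf1r, the receptor that sustains macrophages, had 287 and 539 reads (1.57, 1.36 to 1.82). The complement genes C1qa and C1qc had ratios of 1.17 (1.02 to 1.35) and 1.35 (1.14 to 1.61), and Cx3cr1 1.71 (1.41 to 2.09). The 3 below 1, also named for the other direction, were Adgre1 (0.891), Mrc1 (0.918) and Cd68 (0.984), each with an interval that included 1. With scaling to the epithelium list, all 11 had a ratio above 1, these 3 at 1.09, 1.13 and 1.21. Of 9 genes of follicle-associated epithelium and follicular stroma, which mark lymphoid follicles of the gut wall, 8 had a ratio above 1, 4 had an interval wholly above 1 and 5 one that included 1. Clu, the gene of the 4 with by far the most reads, had 289 and 459 (1.33, 1.14 to 1.54), and the other 3 had 1 or 2 reads in WT. Ccl20, the chemokine of that epithelium, had 2 and 36 reads (15.04, 3.87 to 128.9), Gp2 of its M cells 1 and 12 (10.02, 1.48 to 428.5), and Madcam1, a homing receptor of vessels and follicular stroma, 1 and 30 (25.1, 4.17 to 1022). The amount of lymphoid follicle in each pool is not known, and its part in the values of the 10 genes was not tested.

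The genes outside the 10 and outside the immunoglobulin genes whose log2(CPM + 1) difference was nearest to that of Jchain were Fabp2, Slc30a10, Aadac, Mptx1 and Nxpe2, with gaps of 0.0247 to 0.157 on that scale. The likeness rests on 2 libraries and is therefore a likeness of 1 difference. Fabp2, the fatty acid binding protein of small intestinal enterocytes, had 56 and 299 reads, and Mptx1, a pentraxin of the intestinal epithelium, 6599 and 35854.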

How the data were processed

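RNA of the intestine was extracted, pooled from 3 mice per genotype and sequenced from the 3' ends of transcripts with reads of 75 bases, giving 1 library each for ERAP1 WT and ERAP1+/-. The counts were deposited as read numbers for 40879 gene symbols, not normalized. The methods name STAR with HTSeq-count, and the submitters' processing notes name Bowtie2 and RSEM on GRCm38. Which of them made the deposited counts, and with what strand setting, is not given in the sources used here.

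Libraries were scaled by TMM factors of 0.958 (WT) and 1.04 (ERAP1+/-), computed with edgeR 4.0.16 under R 4.3.3. CPM and log2(CPM + 1), with a pseudocount of 1, were computed in Python 3.11.15 with pandas 2.3.3, and this scale understates differences of genes with few reads. A gene was past 2-fold where log2(CPM + 1) differed by more than 1 and reached 4 in 1 or both libraries. Ratios of scaled reads carry exact conditional binomial 95% intervals from scipy 1.17.1. A quasi-likelihood test needs replicates and was not run. The scripts were tested on simulated data. Plots were drawn with matplotlib 3.10.9.

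The members and the gene lists were chosen with earlier results of these data known. Members were matched by symbol. Named were all 10 members, genes of a list past 2-fold, up to 4 further genes a list by reads whose interval excluded 1, chosen immunoglobulin genes and the 5 genes nearest to Jchain, and exceptions are marked in the text. Of the skin and muscle lists, only genes at 0 in 1 library are named. Positions came from GENCODE M21 on GRCm38, and promoter windows and motif shares from RefSeq on GRCm38.p6. The alternatives were DESeq2 1.42.0 size factors, the total count or the intestinal epithelium list as scaling, other pseudocounts, low-value filters and folds, and edgeR's exact test with an assumed biological coefficient of variation (BCV).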

Additional observations from a re-analysis of the deposited data

How the results depend on the processing

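No paired analysis was possible because there is only 1 library a genotype, and for the same reason no replicate could be left out. The number of the 10 genes past 2-fold was 3 (Jchain, Mzb1 and Prdm1, with 428 of 8013 genes in all). It was 4 with scaling to the intestinal epithelium list, which added Txndc5 (481 of 8135). It was 5, with Pou2af1 and Cd79b, without a filter on low values (1434 of 40879 genes in all), 5 with at least 10 reads in 1 or both libraries (1390 of 15334) and 5 where the log2 value had to reach 2 (1026 of 13046), the last chosen after seeing the data. It was 1 (Jchain) where that value had to reach 6 (160 of 3046). With other thresholds in place of 2-fold, it was 2 at 4-fold (Jchain and Mzb1, with 160 of 8013 genes in all). At 1.5-fold it was 4 (Jchain, Mzb1, Prdm1 and Txndc5, with 1247 of 8013). By edgeR's exact test with an assumed BCV it was 4 at a BCV of 0.2 (Cd79b, Jchain, Mzb1 and Pou2af1, with 591 of all genes called) and 0 at 0.4 (246 of all genes). Of 121 genes in the 7 pathway lists outside the 10, those past 2-fold numbered 2 (Ly6d and Lman1), 4 with scaling to the intestinal epithelium list, 11 without a filter, 11 with at least 10 reads and 7 where the log2 value had to reach 2. Over all genes that passed, the shares past 2-fold were, in that order, 5.34%, 5.91%, 3.51%, 9.06% and 7.86%. Except without a filter, the 121 also include genes that did not pass. The counts describe the lists and are not a result about them. The median difference over the 10 genes ran from 0.76 to 1.02 over the scalings and was 1.17 with a pseudocount of 0.1. Scaling by the total count shifted all genes by 0.12 on the log2 scale, with 166 higher and 248 lower, and scaling to the epithelium list by 0.29, with 284 higher and 197 lower, against 111 and 317. Over 7 scalings the ratio of Jchain ran from 4.15 to 5.09, of Mzb1 from 6.22 to 7.63, of Pigr from 1.36 to 1.67 and of Prdm1 from 0.383 to 0.470, and Sdc1 (0.868 to 1.07) passed 1 with the epithelium scaling. Differences between mice cannot be measured in pools, and few reads also limit Cd79a, Cd79b, Irf4, Mzb1 and Pou2af1.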
